A study of Canis lupus familiaris with 10 samples.

Results

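The 6 sequenced canine diffuse large B-cell lymphomas (DLBCL) were divided by mitotic count, the number of dividing tumor cells that the pathologist saw per high-power field of the section. DLBCL1, DLBCL2 and DLBCL3 came from dogs with a count above 6 per field (the higher-count group) and DLBCL4, DLBCL5 and DLBCL6 from dogs below 6 (the lower-count group). These are 6 of the 10 libraries of the study, 3 in each group, with 1 library per dog. The libraries nearest to the limit were DLBCL2, with 7.1 mitoses per field, and DLBCL4, with 5. The mitotic counts were matched to the libraries by the dog's number, since the labels themselves give the disease state only. No source used here states that the numbers of dogs and libraries correspond, so the match is an assumption and every comparison of the groups rests on it.

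All 6 were client-owned dogs of several breeds whose lymph nodes were biopsied under anesthesia and fresh frozen. The age of these dogs is not given in the sources used here, and sex, stage and histologic subtype differed among them. Lymph nodes of 4 healthy dogs (Healthy2 to Healthy5), which were purpose-bred and were sampled after euthanasia, serve as background. The healthy dogs were all female hound crosses under a year old, so they differed from the patients in more than health. Their libraries did not enter the main test of the mitotic groups, only an alternative fit of all 10 libraries. The sequencing quality was not even between the groups. Q30, the share of bases called at high quality, exceeded 97% in every higher-count library and, of the lower-count group, in DLBCL5 alone. It was under that value in DLBCL6, DLBCL4 and all healthy nodes, so only DLBCL5 separates Q30 from the mitotic group. The question was which miRNAs differ between lymphomas with more and with fewer dividing cells.

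A miRNA is a short RNA that guides the silencing complex to messenger RNAs through its seed, the bases near its 5′ end, and lowers their translation and stability. Many miRNAs act on the cell cycle. The miR-17/92 cluster and its paralogs promote division of B cells and restrain the cell-cycle inhibitor p21 and the death factor BIM, whereas miR-34, miR-15/16, let-7 and miR-29 restrain cyclins, CDKs and MYC-driven growth. The mitotic count is read from sections as a measure of how fast a lymphoma proliferates. In bulk tissue, fewer cells of a type and less of a miRNA in each cell cannot be told apart.

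Of 320 listed miRNAs, 313 had at least 1 read in a DLBCL library and 239 passed the filter on low counts. The edgeR quasi-likelihood test called 0 of these 239 (0%) at an adjusted p under 0.05 and a fold change over 2, and 11 had an unadjusted p under 0.05. Of these 11, 8 were higher in the higher-count group (3.35% of the miRNAs tested) and 3 were lower (1.26%). The 8 include miR-486 and miR-486-3p, which had nearly equal read counts in every library. Without any difference between the groups, a share of about 0.05 would have an unadjusted p under 0.05. The 11 of 239 do not exceed that share. DESeq2 called 4 of 302 (1.32%), and these were miR-182, miR-183, miR-96 and miR-8908a-3p. limma-voom with sample quality weights called miR-182, miR-183 and miR-96, 3 of 239 (1.26%). The same 3 were called by edgeR when the healthy libraries helped to estimate the spread, among 259 tested (1.16%). The healthy nodes varied less, so this fit may understate the spread among lymphomas. The median SD on the log2 scale was 0.53 in healthy nodes, 1.01 in the higher-count group and 0.91 in the lower-count group. These 3 miRNAs are transcribed together, so their calls are not independent results. edgeR called miR-182 when miRNAs with fewer than 10 reads in any library were left out, 1 of 195 (0.513%). Each of these calls was higher in the higher-count group. The log2 fold change was above 0 for 116 of the 239 miRNAs, or 48.5%, with a median of -0.05.

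**Figure D1:**
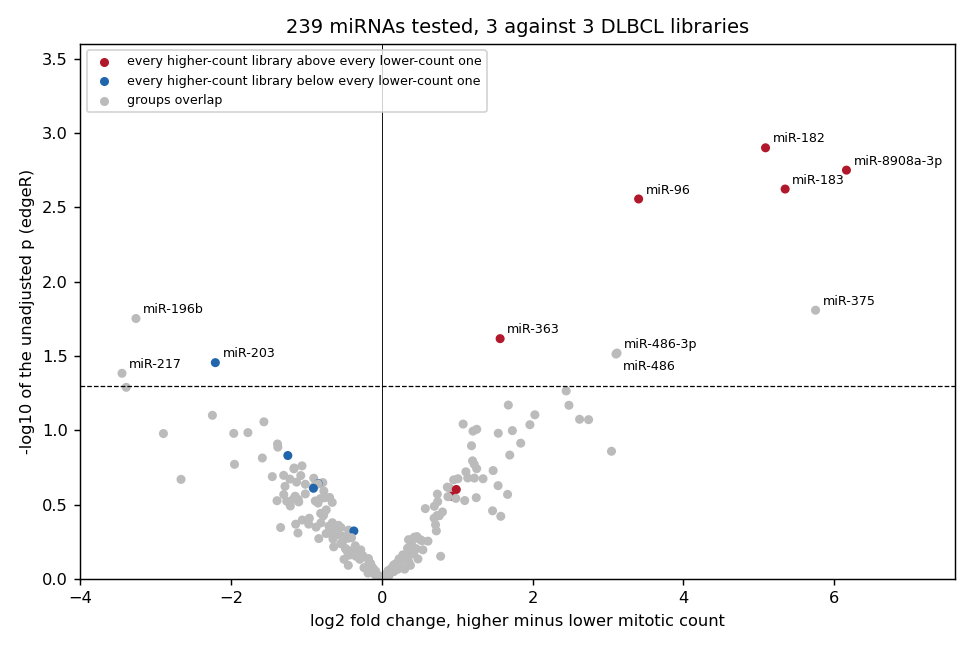
Each point is a miRNA, with the log2 fold change of higher against lower mitotic count on the x axis and the -log10 of edgeR's unadjusted p on the y axis and a dashed line at the 0.05 level. miR-182, miR-183, miR-96 and miR-8908a-3p lie apart at the upper right, and red and blue points are the 12 miRNAs whose groups do not overlap.

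The 3 miRNAs of the miR-183, miR-96 and miR-182 cluster had the clearest difference. Their genes lie side by side in the dog annotation, with 0 genes listed between neighbours, and are transcribed together. They are best known from sensory cells, and in lymphocytes and many tumors they restrain FOXO1, a factor that holds cells in quiescence. miR-96 and miR-182 have closely related seeds. Levels are given as CPM, read counts scaled to a common library size after TMM normalization.

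miR-182 stood at 3303 CPM in DLBCL1, 1348 in DLBCL2 and 13181 in DLBCL3. It stood at 131 CPM in DLBCL4, 328 in DLBCL5 and 65.5 in DLBCL6. The groups did not overlap, and the healthy libraries, at 114 to 386 CPM, lay within or just above the range of the lower-count group. The log2 fold change was 5.09 with a standard error (SE) of 1.10, edgeR's unadjusted p was 0.00126 and the adjusted p 0.166.

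miR-183 was measured at 1016, 409 and 6768 CPM in DLBCL1, DLBCL2 and DLBCL3, and at 46.6, 131 and 23.7 CPM in DLBCL4, DLBCL5 and DLBCL6. The order of the libraries was the same as for miR-182, and the healthy libraries held 42.1 to 175 CPM. Its log2 fold change was 5.35 (SE 1.28, adjusted p = 0.166 by edgeR). miR-96 was measured at 919, 463 and 324 CPM in the higher-count group and at 88.1, 52.8 and 20.1 CPM in the lower-count group, against 34.1 to 59.4 CPM in the healthy libraries. DLBCL3, the highest library for miR-182 and miR-183, was the lowest of its group for miR-96. The log2 fold change of miR-96 was 3.41 (SE 0.83, adjusted p = 0.166 by edgeR).

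**Figure D2:**
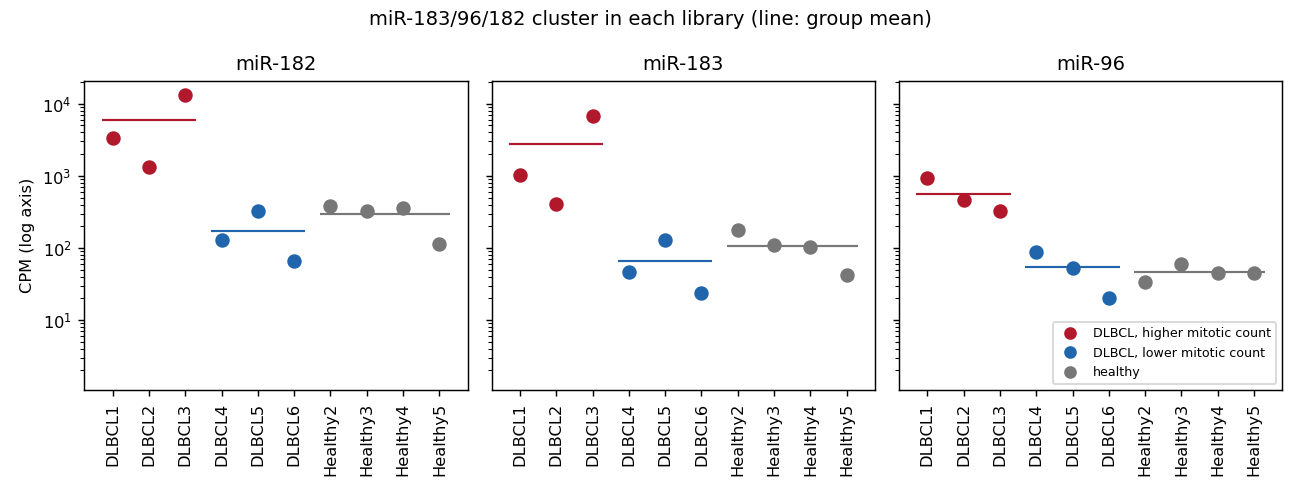
CPM of miR-182, miR-183 and miR-96 in each of the 10 libraries on a log axis, with a line at each group's mean. The 3 higher-count libraries sit above the other 7 in every panel, from 1348 CPM upward for miR-182, while the lower-count and healthy libraries share one range.

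Summed over the 3 miRNAs, the cluster took 2220 to 20273 CPM in the higher-count group, 109 to 511 CPM in the lower-count group and 200 to 596 CPM in the healthy nodes. The fold changes of miR-182 and miR-183 leaned on DLBCL3. Without it, they were 3.70 and 3.37 on the log2 scale, and that of miR-96 was 3.66. The sequencing quality moved with miR-182 and miR-183, since DLBCL5 was the highest of the lower-count group for both and the Q30 groups did not overlap either. For miR-96 the Q30 groups did overlap. Between DLBCL1, DLBCL2, DLBCL3 and DLBCL5, all of higher Q30, the log2 fold changes were 4.31 for miR-182, 4.51 for miR-183 and 3.61 for miR-96. With the Q30 group as a term of the fit they were 4.18, 4.38 and 3.43. All of these adjusted p-values were at least 0.864 by edgeR, with 1 lower-count library at higher Q30 to compare with.

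miR-8908a-3p, one of a family of near-identical canine miRNAs that counting may split, was a rare miRNA with a large fold. It had 8, 23 and 40 reads in DLBCL1, DLBCL2 and DLBCL3 and 1, 0 and 0 reads in DLBCL4, DLBCL5 and DLBCL6. It passed the filter on low counts only through the higher-count group, so that its fold, its p and its lack of overlap were in part fixed by the filter, and it dropped out when every library had to hold 10 reads. The 71 reads against 1 gave a ratio of 109 after scaling, with a 95% exact counting interval from 18.9 to 4361. The interval covers counting error only. Healthy nodes held more, 13.6 to 22.9 CPM in 3 libraries, and 0 reads in Healthy3.

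Few other miRNAs separated the groups. Every higher-count library lay above every lower-count library for 7 miRNAs (2.93%) and below for 5 (2.09%). Above were miR-182, miR-183, miR-96, miR-8908a-3p, miR-363, miR-345 and miR-632. Below were miR-203, miR-17, miR-142, miR-107 and miR-628. Of these 12, miR-345, miR-632, miR-107 and miR-628 are named after their values were seen. If libraries were exchangeable between the groups, a miRNA would separate 3 against 3 in either direction with a probability of 0.1. The 12 found among 239 do not exceed that share, so lack of overlap alone does not mark a group difference. When the 6 libraries were divided by Q30 instead, 70 of the 239 miRNAs (29.3%) did not overlap, 29 of them higher and 41 lower at higher Q30. The Q30 division sets only DLBCL4 and DLBCL6 against the rest, whereas the mitotic groups are of equal size. The shares without overlap are therefore not directly comparable. miR-182, miR-183, miR-345, miR-17 and miR-107 separated under both divisions.

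miR-363, a member of the miR-106a to miR-363 cluster of the X chromosome and of the miR-92 seed family, was the most abundant of these 12. It stood at 10961, 19545 and 19338 CPM in DLBCL1, DLBCL2 and DLBCL3, against 6366, 3224 and 7210 CPM in DLBCL4, DLBCL5 and DLBCL6. Healthy nodes held 2342 to 3203 CPM, below every lymphoma. The log2 fold change was 1.57 (SE 0.58, adjusted p = 0.803 by edgeR), and it was 2.56 among the 4 libraries of higher Q30. When the mitotic count entered the fit as a number, the fold change for the difference between the group means was 0.93.

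Several leading miRNAs rested on 1 library. miR-375, a miRNA of endocrine and epithelial cells, was at 99.9 CPM in DLBCL3 and at 0.329 to 1.25 CPM in the other 5 lymphomas, and its log2 fold change of 5.75 (adjusted p = 0.705 by edgeR) became 0.53 without DLBCL3. miR-486, a red blood cell miRNA, stood at 2079, 1160 and 24048 CPM in the higher-count libraries and 740, 2020 and 410 CPM in the lower-count ones. Its groups overlapped, and the log2 fold change was 3.11 with DLBCL3 and 0.58 without it. miR-486-3p, named for the other arm of the same hairpin, had nearly the same levels and a fold change of 3.12. Its read counts were nearly equal in every library, with 371586 for miR-486 and 363992 for miR-486-3p in DLBCL3. The 2 entries are therefore not independent results. Whether the same reads were counted under both names was not tested. miR-1 of striated muscle reached 414 CPM in DLBCL3 against 8.89 to 76.4 CPM in the other lymphomas, with a fold change of 2.45, or 0.79 without DLBCL3. miR-222, which restrains the cell-cycle inhibitor p27, was at 1907, 735 and 3321 CPM against 888, 778 and 198 CPM. DLBCL2 lay below both DLBCL4 and DLBCL5 for it, and the log2 fold change was 1.68 (SE 0.81), or 1.06 without DLBCL3.

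Of the 10 leading miRNAs with lower levels in the higher-count group, all but miR-203 were highest in DLBCL4. miR-196b, a miRNA of the HOX loci, stood at 9.54, 7.62 and 2.01 CPM in the higher-count group and at 99.0, 6.60 and 78.2 CPM in DLBCL4, DLBCL5 and DLBCL6. DLBCL5 lay inside the range of the higher-count group, and healthy nodes held 117 to 147 CPM. The log2 fold change was -3.26 (SE 1.12, adjusted p = 0.705 by edgeR), and it was -0.05 with the Q30 group in the fit.

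miR-217, miR-216a and miR-216b are transcribed from one locus and are abundant in exocrine pancreas. miR-217 was at 16.5, 4.70 and 1.42 CPM in the higher-count group and at 223 CPM in DLBCL4, with 11.2 and 11.9 CPM in DLBCL5 and DLBCL6. Its log2 fold change of -3.45 (SE 1.45) became -0.50 without DLBCL4. The fold changes of miR-216a and miR-216b were -3.39 and -2.25, or -1.20 and -1.45 without DLBCL4, and DLBCL4 was again the highest lymphoma for both. All lymphomas lay below the healthy nodes for these 3 miRNAs, of which the healthy levels of miR-217 were 353 to 553 CPM.

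miR-203, an epithelial miRNA that restrains p63, was the one of these whose groups did not overlap. It was at 4.91, 7.03 and 4.47 CPM in DLBCL1, DLBCL2 and DLBCL3 and at 9.55, 52.0 and 14.5 CPM in DLBCL4, DLBCL5 and DLBCL6. Healthy nodes held 7.61 to 15.2 CPM. The log2 fold change was -2.21 (SE 0.89, adjusted p = 0.803 by edgeR), and it was -3.04 among the libraries of higher Q30 and -1.12 without DLBCL5. For miR-29c, miR-590, miR-33a and miR-374a, which had fold changes of -1.56, -1.78, -1.96 and -1.38, DLBCL4 and DLBCL6, the lymphomas of lower Q30, lay above the other 4. With the Q30 group in the fit these fold changes turned to 0.41, 1.22, 0.89 and 0.56. miR-34c, a p53-induced miRNA, was at 257 CPM in DLBCL4 and 2.07 to 20.5 CPM in the others, and its fold change of -2.90 was 1.74 without DLBCL4.

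**Figure D3:**
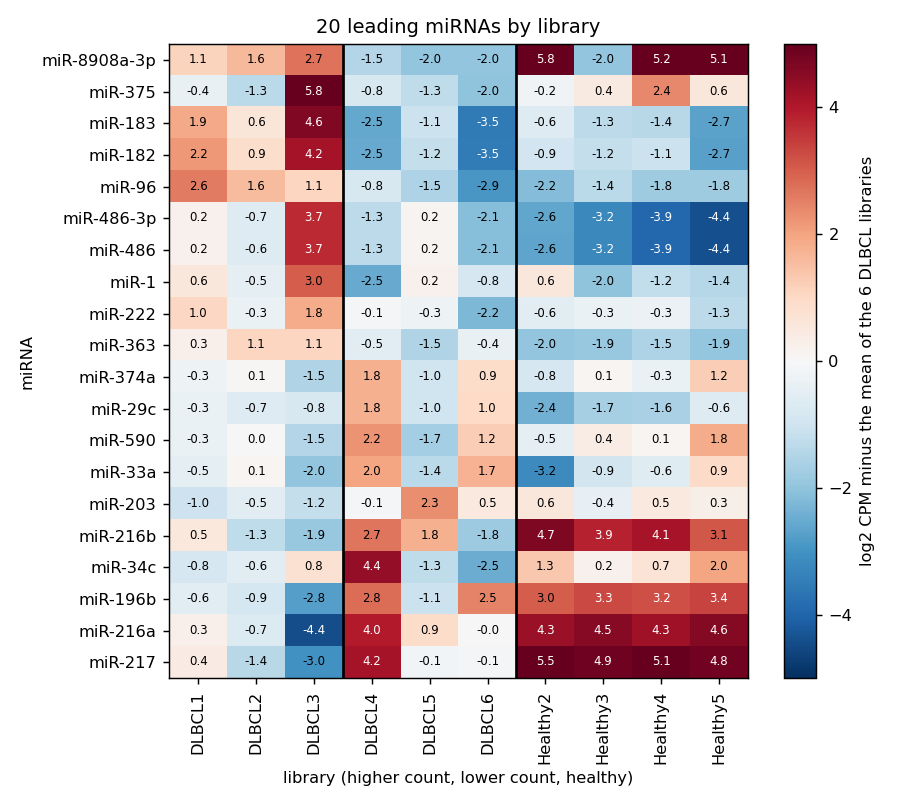
Each row is 1 of the 20 leading miRNAs, 10 in each direction by unadjusted p, and each column a library. Color and number give log2 CPM minus the mean of the 6 lymphomas; DLBCL3 carries miR-375, miR-486 and miR-1, and DLBCL4 carries miR-34c, miR-216a and miR-217.

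In the cell-cycle families edgeR called 0 miRNAs, and each family is described by its members. The median over all miRNAs tested was -0.05, but 0.53 with the Q30 group in the fit and -0.55 with total miRNA reads. The count of members above 0 therefore shifts with the fit in every list, even where a list keeps its place among all miRNAs. Of the 6 members of the miR-17/92 cluster, 1 had a fold change above 0 and 5 below, with a median of -0.91 against -0.05 over all miRNAs tested, but with the Q30 group in the fit 5 of 6 lay above 0, with a median of 0.995 against 0.53 over all. The member above 0 without the Q30 group was miR-92a, at 6800, 3997 and 19474 CPM against 4592, 4258 and 3801 CPM. Its fold change was 1.26 on the log2 scale, and 0.34 without DLBCL3, and DLBCL2 lay below DLBCL4 and DLBCL5. miR-17, the founding member, did not overlap, at 16.3, 12.2 and 3.82 CPM against 28.3, 22.9 and 25.6 CPM. Its log2 fold change was -1.25 (SE 0.79, adjusted p = 0.803 by edgeR). miR-17 was the member that stayed below 0 with the Q30 group in the fit. Over all alternatives its fold change was -1.67 to -0.66. miR-20a was at 3408, 3215 and 1162 CPM against 6771, 1548 and 5376 CPM, with the highest values in DLBCL4 and DLBCL6. Its fold change of -0.81 was 0.75 with the Q30 group in the fit.

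Of the miR-106a to miR-363 cluster, miR-363 alone of 4 members had a fold change above 0. With the Q30 group in the fit all 4 did, with a median of 2.34 against 0.53 over all. miR-106a, which shares its seed with miR-17, was at 1.16 to 10.5 CPM in the lymphomas, with a fold change of -1.22. The miR-106b/25 cluster had 1 of 3 members above 0 and a median of -0.58. With the Q30 group all 3 lay above 0, with a median of 0.45 against 0.53 over all. The member above 0 without the Q30 group was miR-25, at 0.89 (-0.023 without DLBCL3), which belongs to the miR-92 seed family as do miR-363 and miR-92a.

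Of the families that restrain division, let-7 and miR-98 had 7 of 8 members above 0, with a median of 0.29. With total miRNA reads the count was 2 of 8 (median -0.05 against -0.55 over all). With the Q30 group it was 4 of 8 (median 0.12 against 0.53 over all). let-7f, the most abundant member, had a fold change of 0.87 (SE 0.69) that came to 0.0031 without DLBCL3. The miR-29 family had 0 of 3 above 0 (median -0.85) and miR-15/16 had 1 of 5 (median -0.66). With the Q30 group these counts were 2 of 3 and 5 of 5, with medians of 0.32 and 0.60 against 0.53 over all. Of 5 p53-induced miRNAs tested, 1 was above 0, or 2 with the Q30 group, with medians of -0.77 and -0.33. miR-34a, which restrains MYC and CDK6, was at 339, 248 and 5.57 CPM in DLBCL1, DLBCL2 and DLBCL3 and at 936, 97.5 and 521 CPM in DLBCL4, DLBCL5 and DLBCL6. All lymphomas other than DLBCL3 lay above the healthy range of 14.8 to 34.6 CPM. The fold change of miR-34a was -1.39 (SE 1.26), and 1.02 with the Q30 group in the fit. The miR-30 family stood at 2 above and 3 below 0, or 4 above with the Q30 group, of which miR-30d, at 21552 to 64219 CPM against 17507 to 23861 CPM, had a fold change of 1.08, or 0.62 without DLBCL3.

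The lymphoid miRNAs were present in every lymphoma. miR-155, induced on B-cell activation and raised in DLBCL of the activated type, was at 16921, 4135 and 7204 CPM against 8144, 12768 and 4423 CPM. The groups overlapped over most of their range, and the log2 fold change was 0.16 (SE 0.69). Of the 6 miRNAs in the list labeled mature resting lymphocytes, 2 had a fold change above 0 (median -0.65). The count was 1 with the Q30 group and 0 when scaled to total miRNA reads. The 4 below 0 were miR-181a, miR-181b, miR-181c and miR-181d, at -0.88, -1.38, -1.06 and -0.42. The median below 0 thus came from the miR-181 members, for which the label was not tested. The 2 above 0 were miR-150 and miR-342, at 0.28 and 0.43. miR-150 was at 700 to 2386 CPM in the higher-count group and 811 to 1604 CPM in the lower-count group. Healthy nodes held 4346 to 18847 CPM of it. miR-142, a miRNA of hematopoietic cells, was at 5370 to 5821 CPM against 6469 to 8027 CPM, and its fold change was small, -0.37 (SE 0.50).

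**Figure D4:**
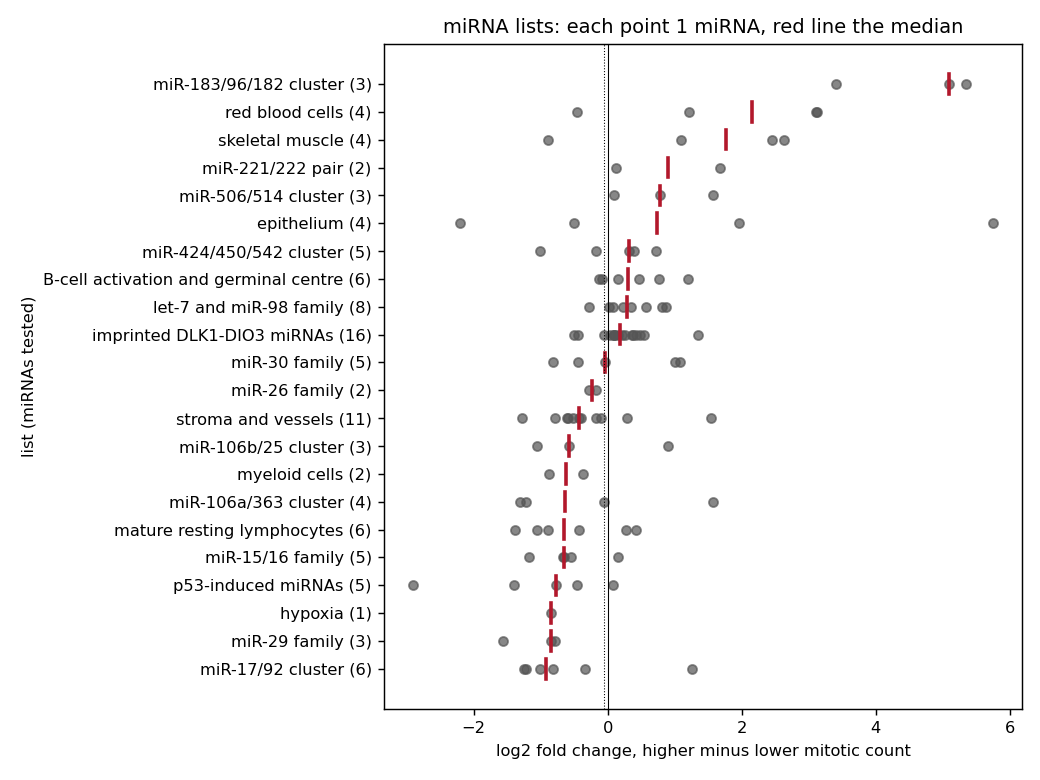
Log2 fold changes of every miRNA tested in each list, 1 point per miRNA, with the list's median as a red line and the number tested in parentheses. The miR-183, miR-96 and miR-182 cluster has all 3 members above 3, whereas most other lists have members on both sides of 0; the dotted line is the median of all miRNAs tested.

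Markers of other cells moved with the groups in part. The 4 red blood cell miRNAs, with both miR-486 entries counted, summed to 38440 to 67215 CPM in the higher-count group. In the lower-count group they summed to 7127 to 28290 CPM, without overlap, and in healthy nodes to 1114 to 1810 CPM. The sums of the Q30 groups did not overlap either, since DLBCL5, at 28290 CPM, lay above DLBCL6 and DLBCL4, at 11802 and 7127 CPM. miR-451, miR-486 and miR-486-3p overlapped between the mitotic groups but not between the Q30 groups. miR-451, the most abundant of the 4, was at 38855, 36134 and 19607 CPM against 5665, 24296 and 10960 CPM. DLBCL5 exceeded DLBCL3 for it, and its fold change was 1.21 (SE 0.66). miR-144, which is transcribed with miR-451, had a fold change of -0.46 (SE 0.99), and 1.51 with the Q30 group in the fit, where all 4 red blood cell miRNAs lay above 0. Leaving out 1 library gave -1.18 to 0.38 for it. All 4 had reads in every lymphoma. The part of blood in the other results was not tested.

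Stromal and vessel miRNAs had 2 of 11 members above 0 (median -0.43), or 7 of 11 with the Q30 group, and their sums overlapped, at 109559 to 164634 CPM against 69397 to 272868 CPM. miR-10b, one of the 2, reached 82692 CPM in DLBCL3 and had a fold change of 1.54 (SE 0.86), or 0.096 without that library. The epithelial miRNAs summed to 24.1 to 279 CPM against 27.9 to 76.1 CPM, and 4 of 8 passed the filter. Of these 4, 2 had a fold change above 0, both without and with the Q30 group (medians 0.73 and 0.56). DLBCL3 was the lowest lymphoma for miR-203, at 4.47 CPM. For miR-141, named after its values were seen, it was at 5.57 CPM against 2.97 to 6.40 CPM in the other 5. DLBCL3 was the highest lymphoma for miR-375 and for miR-200c, at 148 CPM against 13.0 to 16.8 CPM in the other 5. Of the 4 that did not pass, miR-200a was likewise at 19.9 CPM in DLBCL3 and at 0 to 0.248 CPM in the other 5, whereas miR-200b, miR-205 and miR-429 had at most 0.712 CPM in any lymphoma. Muscle miRNAs had 3 of 4 tested above 0 (median 1.77), or 2 of 4 with the Q30 group (median 0.77). Their sums overlapped, at 1104 to 1433 CPM against 819 to 3456 CPM. miR-499, the most abundant, had a fold change of -0.89. It was lowest in DLBCL3, at 643 CPM against 777 to 3386 CPM in the other 5. miR-206 was at 70.2 CPM in DLBCL3 against 1.39 to 10.3 CPM in the others. The myeloid miRNA miR-223 was at 5.44 to 41.9 CPM in the higher-count group and 9.14 to 110 CPM in the lower-count group. The part of these cells in the results was not tested.

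Of the other lists, the miRNAs of the imprinted DLK1-DIO3 locus had 13 of 16 above 0 with a median of 0.18. With total miRNA reads the count was 2 of 16 (median -0.25 against -0.55 over all). With the Q30 group in the fit it was 16 of 16 (median 2.74 against 0.53 over all). The summed level of this list overlapped between the groups. The miR-506 to miR-514 cluster of the X chromosome had 3 of 3 above 0, or 2 of 3 when scaled to total miRNA reads, with a median of 0.78 that was 4.05 with the Q30 group, but DLBCL1 and DLBCL4 held most of its reads, with sums of 67.5 and 32.3 CPM against at most 4.01 CPM in the others. The miR-424 to miR-542 cluster had 3 of 5 above 0 (median 0.32). With total miRNA reads the count was 0 of 5 (median -0.41 against -0.55 over all). With the Q30 group it was 5 of 5 (median 0.61 against 0.53 over all). The fold change of miR-210, the miRNA of hypoxia, was -0.85, or 0.26 with the Q30 group in the fit, with 8.86 to 21.2 CPM against 11.7 to 38.6 CPM.

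As whole profiles, distances within and between the groups overlapped. The root-mean-square log2 distance between 2 libraries was 1.31 to 2.43 within the higher-count group, 1.38 to 1.97 within the lower-count group and 1.21 to 2.65 between the groups. DLBCL3 stood apart, as the highest of the 6 for 69 miRNAs and the lowest for 86. The median SD of a miRNA's log2 CPM was 1.01 within the higher-count group, 0.44 between DLBCL1 and DLBCL2 alone, 0.91 within the lower-count group and 0.53 within the healthy nodes. The SD over 2 libraries is not directly comparable with those over 3 or 4. In the lower-count group, DLBCL4 and DLBCL6 were at a log2 distance of 1.38. DLBCL5 was at 1.97 from DLBCL4 and 1.96 from DLBCL6. miR-148a, the most abundant miRNA, took 29.9%, 32.8% and 39.0% of the miRNA reads in DLBCL1, DLBCL2 and DLBCL3 and 29.4%, 38.8% and 17.8% in DLBCL4, DLBCL5 and DLBCL6. The means were 33.9% ± 4.63 and 28.7% ± 10.5 (SD, n = 3 each), a difference of 5.20 percentage points (two-sided exact permutation p = 0.4, where 0.1 is the smallest possible).

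**Figure D5:**
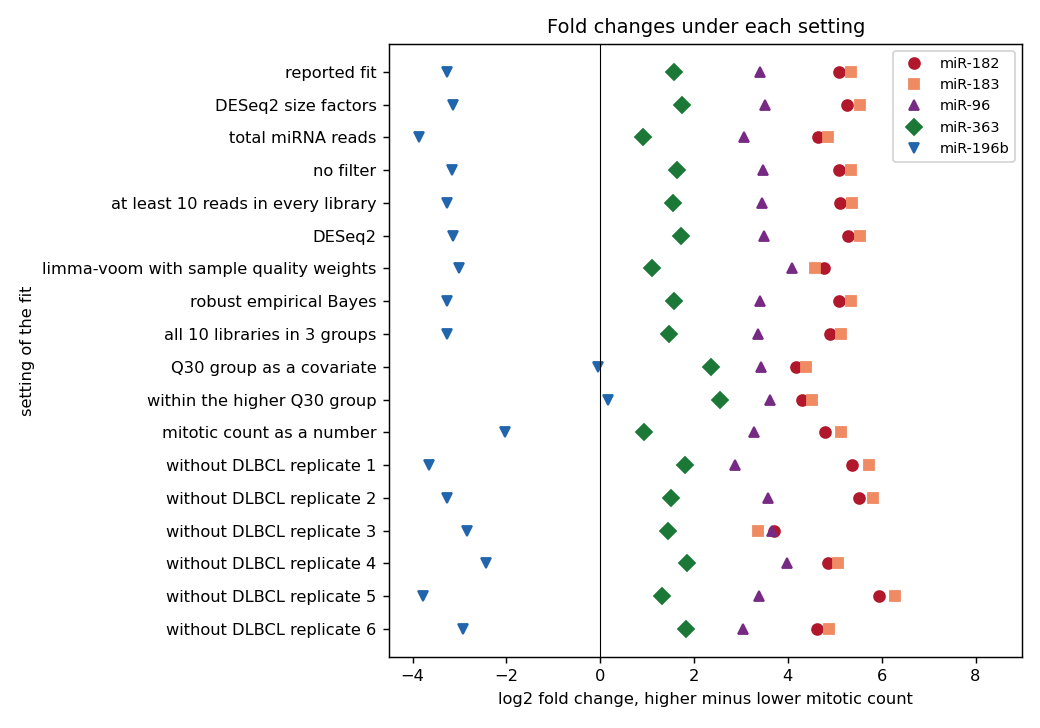
Log2 fold changes of 5 miRNAs on the x axis under each setting of the fit on the y axis. miR-182, miR-183, miR-96 and miR-363 lie to the right of 0 under every setting shown, while miR-196b comes to -0.05 with the Q30 group as a covariate and to 0.16 within the higher Q30 group.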

How the data were processed

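Small RNA libraries (NEBNext Multiplex Small RNA Library Prep Set) of 6 DLBCL and 4 healthy lymph nodes were used. The authors trimmed and filtered the reads, mapped them with Bowtie (0.12.9 per the submitters' processing notes, on CanFam3.1), counted them on miRBase miRNAs with miRDeep2 and deposited raw read counts per miRNA. The deposited TPM values differed from the counts scaled to each library's total by at most 4.55e-05 and were not used further. Mapping and counting were not repeated. The lymphoma libraries held 10686441 to 25784861 miRNA reads and the healthy ones 30432969 to 34709421, so that counting error is small except for rare miRNAs.

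The condition of each library came from its label. The mitotic counts and Q30 came from the study's clinical and sequencing tables, matched by number. Each library is 1 dog. No pair of lymphoma libraries was a duplicate (smallest chi-squared per degree of freedom 3572).

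The counts of the 6 lymphomas were analysed in R 4.3.3 with edgeR 4.0.16 (normalized by TMM, default filter by mitotic group, quasi-likelihood test, Benjamini-Hochberg adjustment over 239 miRNAs). A miRNA was called at an adjusted p under 0.05 with a log2 fold change beyond 1 in either direction. The biological coefficient of variation was 0.817. CPM used the TMM library sizes, and log2 CPM a prior count of 2. Non-overlap was read from CPM, with no test. The share of miR-148a was compared by exact permutation (Python 3.11.15, scipy 1.17.1, numpy 2.4.6, pandas 2.3.3). Figures used matplotlib 3.10.9. The scripts were tested on simulated data. Alternatives were DESeq2's size factors, total miRNA reads, no filter, at least 10 reads in every library, DESeq2 1.42.0, limma 3.58.1, robust empirical Bayes, a fit of all 10 libraries in 3 groups, Q30 as a covariate, the higher Q30 group alone, the mitotic count as a number (scaled to the difference of the group means), the adjusted p alone and each library left out. The comparison of the Q30 groups was added after seeing the data.

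The members and the miRNA lists were chosen with earlier results of these data known. By the rule for names, 86 miRNAs could be named: those with the 10 smallest unadjusted p-values per direction, the 5 most abundant, and from each list the member with the smallest p, the most abundant and, for lists of 6 or fewer, all. Of these, 39 are given with a fold change under each alternative. Names follow the deposited table, most of which state no arm. The annotation of UU_Cfam_GSD_1.0 was used for gene neighbours only.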

Additional observations from a re-analysis of the deposited data

Results flagged for a closer look

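Among the 20 leading miRNAs, 3 of 40 groups (the 6 lymphomas or the 4 healthy nodes for each miRNA) held a library far from the others by Dixon's test at the 95% level, which chance alone flags in about 1 of 20 groups. miR-375 was at 99.9 CPM in DLBCL3 and at 0.329 to 1.25 CPM in the other 5 lymphomas. miR-182 was at 114 CPM in Healthy5 and at 325 to 386 CPM in the other 3 healthy nodes. miR-8908a-3p was at 0.0 CPM in Healthy3 and at 13.6 to 22.9 CPM in the other 3.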

How the results depend on the processing

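The comparison is limited by 3 dogs per group, by the spread of DLBCL3 and by Q30, from which only DLBCL5 separates the mitotic count. No paired analysis was possible because each library came from a different dog. The count of miRNAs called, 0 in the fit reported, was 1 when each library had to hold at least 10 reads, 4 with DESeq2, 3 with limma-voom and 3 with all 10 libraries. It was 0 under the other planned settings, where the smallest adjusted p lay between 0.0524 (total miRNA reads) and 0.963 (higher Q30 alone), and 0 without each library in turn (0.0856 to 0.889). The numbers of miRNAs at an unadjusted p under 0.05 were 11 in the fit reported and, for the Q30 groups in place of the mitotic groups, 32, of which 0 were called. Under DESeq2 the adjusted p was 3.26e-05 for miR-182 and miR-183, 0.00362 for miR-96 and 0.00471 for miR-8908a-3p; under limma-voom it was 0.0259, 0.0269 and 0.0269 for the first 3, with all 10 libraries 0.0369 for each of them, and with at least 10 reads 0.0465 for miR-182. Over all miRNAs the median fold change, -0.05, was -0.55 with total miRNA reads and 0.53 with Q30 as a covariate. Of the 39 miRNAs given, 22 kept their sign under all alternatives that gave a value and 17 did not.

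With Q30 as a covariate, the log2 fold changes that turned sign were 0.41 for miR-29c, 1.22 for miR-590, 0.89 for miR-33a, 1.24 for miR-34c, 0.56 for miR-374a, 1.51 for miR-144, 0.75 for miR-20a, 1.02 for miR-34a, -0.44 for miR-155, -0.25 for miR-150, 0.38 for miR-223, -0.51 for miR-148a, 0.083 for miR-106a and 0.26 for miR-210. Within the higher Q30 group they were 0.60, 1.43, 1.11, 1.40, 0.77, 1.75, 0.95, 1.23, -0.27, -0.094, 0.59, -0.34, 0.28 and 0.43 in the same order, and 0.16 for miR-196b. With total miRNA reads, miR-155 was -0.10 and miR-150 -0.25. miR-223 was 0.24 under limma-voom and 0.29 with the mitotic count as a number. Without 1 library, the range was -3.57 to 1.74 for miR-34c, -1.18 to 0.38 for miR-144, -0.59 to 0.59 for miR-155, -0.44 to 0.65 for miR-150, -1.46 to 0.86 for miR-223, -0.081 to 2.46 for miR-200c, -0.023 to 1.37 for miR-25 and -0.040 to 1.42 for miR-148a. The cause of these turns was not tested. The difference in the share of miR-148a was -0.22 percentage points without DLBCL6 and 2.66 to 10.3 without any other library, and 6.38 points when let-7 reads were left out of the total.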
